A study of Mus musculus with 8 samples.

Results

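The glycerolipid acyltransferases are the enzymes that attach fatty acids to a glycerol backbone. Members were chosen by gene symbol: 10 genes of the 25050 measured, namely Gpam, Gpat4 (listed under its older name Agpat6), Gpat3 (older name Agpat9), Agpat1, Agpat2, Agpat3, Agpat4, Agpat5, Dgat1 and Dgat2. All 10 were found, each on 1 probe set, and no filter removed any of them. The 8 samples, each on its own Affymetrix whole-transcript array, were mammary epithelial cells from female FVB mice, labelled WT and in their first parity. 4 arrays were from lactation day 4 (L4, secretory activation) and 4 from pregnancy day 14 (P14, secretory differentiation). In both groups the tissue had been digested with enzymes to deplete adipocytes. The labels name no transgene or treatment. They do not say whether the 4 samples of a stage came from 4 mothers, so the p-values reflect sample-to-sample spread that could be technical in part or in whole.

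Milk fat is mostly triacylglycerol, which the secretory epithelium makes in the endoplasmic reticulum by adding fatty acids to glycerol 3-phosphate in steps. Glycerol-3-phosphate acyltransferases (GPAT) add the first, acylglycerolphosphate acyltransferases (AGPAT) add the next to give phosphatidate, and, after a phosphatase has removed the phosphate, diacylglycerol acyltransferases (DGAT) add the last. Phosphatidate and diacylglycerol also feed the synthesis of membrane phospholipids. Mice lacking Dgat1 fail to lactate, and mice lacking Agpat6 make milk poor in fat.

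At lactation day 4, 3 of the 10 acyltransferases rose and 1 fell in limma at an adjusted p under 0.05. Each step had 1 member that rose: Gpat4 among the 3 GPAT genes, Agpat1 among the 5 AGPAT genes and Dgat1 of the 2 DGAT genes. Agpat3 fell. Over all genes 9.73% were called higher and 16.1% lower, 25.8% in either direction. In the same 4 members, 3 up and 1 down, the arrays of the stages did not overlap, as in 29.6% of all genes (12.1% upward and 17.4% downward). The median log2 fold change was 0.23 over the 10 acyltransferases and 0.01 over all genes.

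The tissue label was set against cell type markers. The 6 milk genes all rose, with a list mean between 12.49 and 12.62 on the L4 arrays and between 11.80 and 12.02 on the P14 arrays, in log2 units. Of 7 luminal markers 5 fell and 1 rose, with a median log2 fold change of -1.03. Of 13 adipocyte markers 2, Lep and Adig, were called higher at L4 and none lower, with a median log2 fold change of 0.075. Among them Adipoq, which encodes adiponectin, ran between 5.54 and 7.25 on the L4 arrays and between 5.06 and 7.14 on the P14 arrays. No background level was used to call these markers present. Fibroblast markers fell in 6 of 7 cases, macrophage markers in 3 of 6 and T cell markers in 4 of 5. Of 6 myoepithelial markers Krt14 alone was called, lower at L4, and all 5 endothelial markers missed the threshold, with list medians of -0.02 and 0.12. Lower genes made up 62.3% of all calls. This share was 53.2% when arrays were quantile normalized, 47.1% when each was centred on its median gene and 18.0% when each was centred on the median of the brighter 60% of genes, which shifted the median log2 fold change of all genes to 0.19. In bulk RNA, fewer cells of a type and less RNA per cell cannot be told apart.

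The 2 members with the largest changes, Agpat1 and Agpat3, act at the same step and moved in opposite directions, and their promoters are shown for that reason. The windows are the 250 bases before each annotated start from RefSeq (GRCm38.p6), 5′ to 3′ on the gene's strand. Windows were available for 6 of the 10 members, and Agpat1 has 2 annotated starts, which the array values do not separate. Capitals mark matches, on either strand, to the GC box GGGCGG and the CCAAT box CCAAT, motifs common in mammalian promoters.
Agpat1, first start, chr17:34605611-34605860, plus strand: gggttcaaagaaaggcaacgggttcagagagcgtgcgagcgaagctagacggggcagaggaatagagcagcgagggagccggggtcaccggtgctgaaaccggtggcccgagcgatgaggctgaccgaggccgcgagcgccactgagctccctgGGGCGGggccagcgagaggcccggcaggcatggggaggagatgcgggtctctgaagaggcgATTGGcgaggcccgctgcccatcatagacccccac
Agpat1, second start, chr17:34608764-34609013, plus strand: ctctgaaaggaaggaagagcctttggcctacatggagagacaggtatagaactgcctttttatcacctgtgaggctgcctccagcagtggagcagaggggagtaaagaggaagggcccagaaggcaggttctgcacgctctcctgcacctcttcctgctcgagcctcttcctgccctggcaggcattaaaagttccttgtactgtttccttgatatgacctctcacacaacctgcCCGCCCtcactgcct
Agpat3, chr10:78351701-78351950, minus strand: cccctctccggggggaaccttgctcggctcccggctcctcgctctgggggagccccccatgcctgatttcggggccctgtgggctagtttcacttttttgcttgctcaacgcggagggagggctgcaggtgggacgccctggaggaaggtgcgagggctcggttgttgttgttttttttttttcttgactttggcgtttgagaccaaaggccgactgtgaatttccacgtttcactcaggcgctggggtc

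Both Agpat1 windows held 1 GC box, on opposite strands. The first also held 1 CCAAT box, 35 to 31 bases before the start and read on the reverse strand. The Agpat3 window held neither. Members that were not called held these motifs too. Gpat3 had 3 GC box matches and Agpat2 had 2, Agpat4 had 2 CCAAT boxes, and the Gpam windows had 1 GC box and 1 CCAAT box. Among all 32851 windows of this length, 32.7% held a GC box and 33.8% a CCAAT box. The E-box CACGTG (6.02% of all windows) and the core of the sterol regulatory element, TCACNCCAC (1.05%), were not found in any window of the 6 members. None of these motifs overlapped another in the Agpat1 windows. A match is a run of letters and not a shown binding site.

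**Figure D1:**
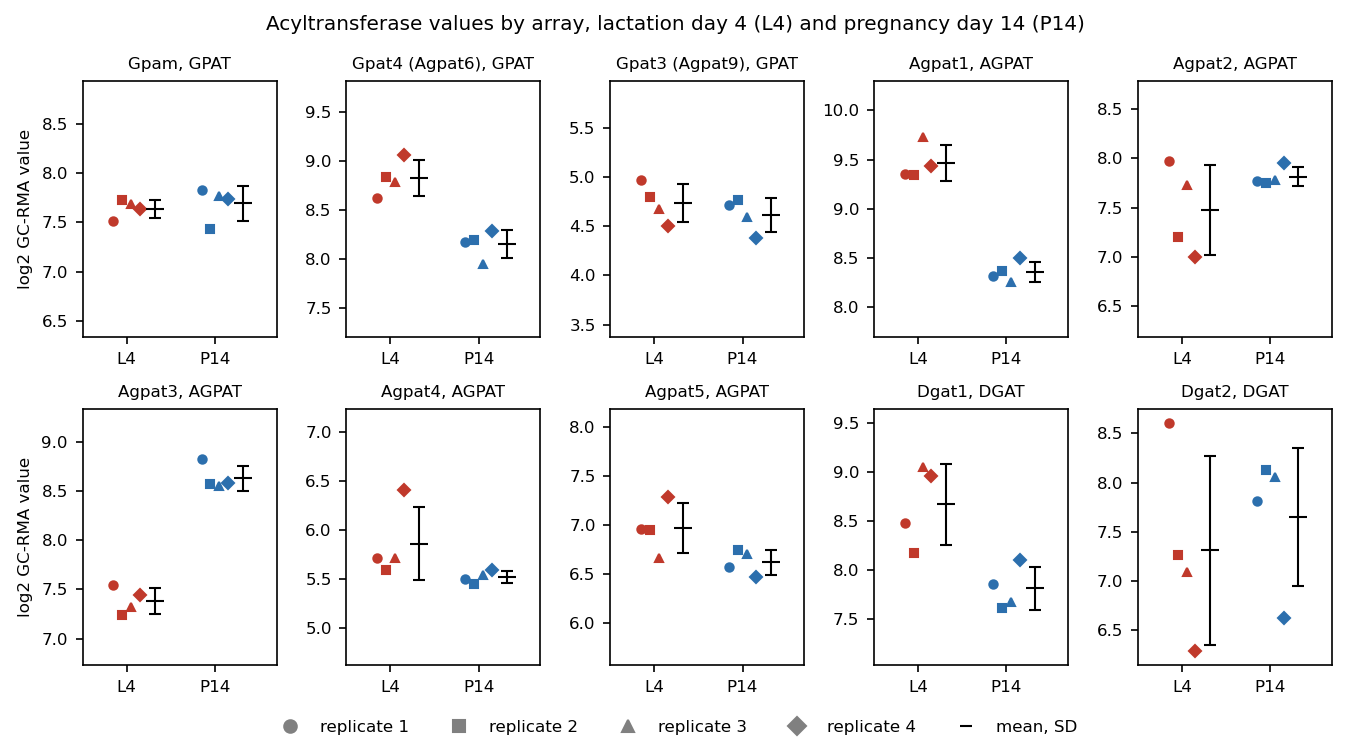
Log2 GC-RMA value (vertical axis, of the same span in each panel) of the 10 acyltransferases on each array at L4 and P14, with a symbol per replicate and the mean and SD in black. For Gpat4, Agpat1 and Dgat1 the L4 points lie above all P14 points, for Agpat3 they lie below, and Dgat2 spreads from 6.29 to 8.60 within L4.

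The first acylation is carried out by Gpam (GPAT1) on the mitochondrial outer membrane and by Gpat3 and Gpat4 in the endoplasmic reticulum. Gpat4 had log2 values of 8.62, 8.84, 8.78 and 9.06 on the L4 arrays, against 8.17, 8.19, 7.95 and 8.29 on the P14 arrays. The groups did not overlap. It rose 1.60-fold, or by 0.68 on the log2 scale (SE 0.11), with an adjusted p of 0.00185 in limma.

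Gpam had log2 values of 7.51, 7.72, 7.68 and 7.63 at L4, against 7.83, 7.44, 7.76 and 7.74 at P14. The L4 range lay inside the P14 range, and the 95% confidence interval of its log2 fold change ran from -0.29 to 0.18 around -0.06 (adjusted p = 0.719 in limma). The sign of this small value turned with the scaling, to 0.06 under quantile normalization. Gpat3 was the only member in the dimmest 40% of genes, where GC-RMA differences can be compressed. Its log2 values were between 4.50 and 4.97 at L4 and between 4.38 and 4.77 at P14, a difference of 0.12 (adjusted p = 0.47 in limma).

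The second acylation showed the widest range of changes. Agpat1, a widely expressed enzyme of the endoplasmic reticulum, had log2 values of 9.35, 9.35, 9.73 and 9.43 at L4, against 8.32, 8.36, 8.25 and 8.50 at P14. Every L4 array was above every P14 array by more than the spread within either stage. The rise was 2.15-fold, or 1.11 on the log2 scale (SE 0.10), with an adjusted p of 6.31e-05 in limma, and it was the largest rise among the 10 members.

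Agpat3, a lysophosphatidate acyltransferase known for its preference for polyunsaturated acyl chains, had log2 values of 7.54, 7.24, 7.32 and 7.44 at L4, against 8.82, 8.57, 8.55 and 8.58 at P14. Here every L4 array was below every P14 array. It was 2.37-fold lower at L4, at a log2 difference of -1.25 (SE 0.10, adjusted p = 2.79e-05 in limma).

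Agpat2, the isoform whose loss causes congenital lipodystrophy in humans, had log2 values of 7.97, 7.20, 7.73 and 6.99 at L4, against 7.77, 7.75, 7.78 and 7.96 at P14. The L4 arrays were spread over about the whole range and the P14 arrays lay close together, with an SD of 0.45 at L4 and 0.10 at P14. The difference of -0.34 log2 units missed the threshold (95% confidence interval -0.77 to 0.09, adjusted p = 0.216 in limma).

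Agpat4, another lysophosphatidate acyltransferase, had log2 values of 5.72, 5.60, 5.72 and 6.41 at L4, against 5.50, 5.45, 5.54 and 5.60 at P14. The highest L4 array stood apart from the other 3, and the difference of 0.34 log2 units missed the threshold (adjusted p = 0.15 in limma). Without that array, replicate 4, it was 0.16 (adjusted p = 0.214). Agpat5, a mitochondrial member, had log2 values of 6.96, 6.95, 6.66 and 7.29 at L4, against 6.57, 6.75, 6.70 and 6.47 at P14. Replicate 3 was the only L4 array within the P14 range. The difference was also 0.34 log2 units (adjusted p = 0.0845 in limma), and it passed the threshold without that array (0.44, adjusted p = 0.0271), under quantile normalization (0.51, adjusted p = 0.0218) and when arrays were centred on the brighter genes (0.52, adjusted p = 0.0109). Replicate 3 held the lowest L4 value, so leaving it out had to raise the difference. Centring on the brighter genes raised the log2 fold change of every gene by the same amount. Neither pass is independent support for a rise of Agpat5. Without L4 replicate 4 the difference was 0.24 (adjusted p = 0.172).

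**Figure D2:**
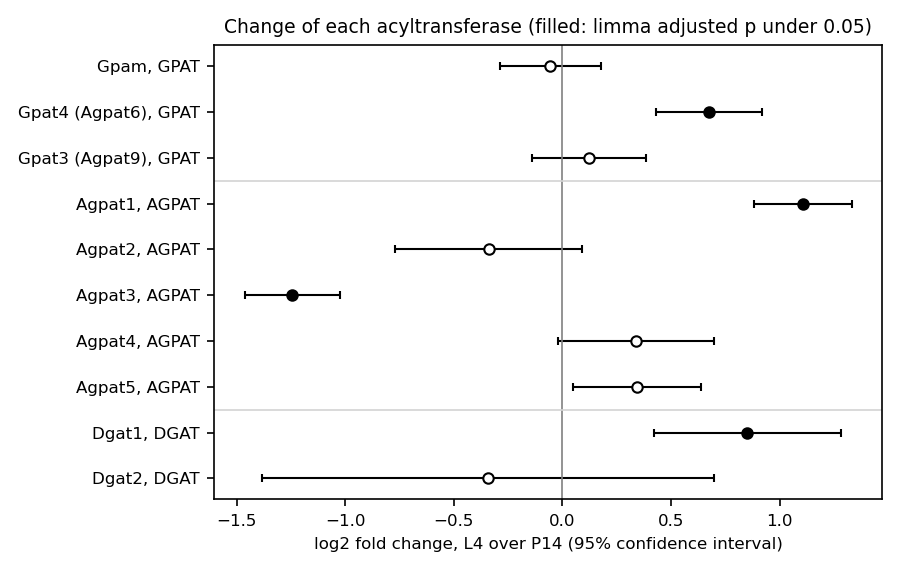
Log2 fold change of L4 over P14 (horizontal axis) with its 95% confidence interval from limma for each acyltransferase, grouped by step from GPAT at the top to DGAT at the bottom, with filled points for adjusted p under 0.05. Agpat1 (1.11) and Agpat3 (-1.25) lie at opposite ends of the AGPAT group, and the interval of Dgat2 (-1.38 to 0.70) is the widest.

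The last acylation is shared by Dgat1 and Dgat2, which are unrelated in sequence. Dgat1 had log2 values of 8.48, 8.17, 9.05 and 8.96 at L4, against 7.86, 7.62, 7.67 and 8.11 at P14. The stages did not overlap, although the lowest L4 array was only just above the highest P14 array. Dgat1 rose 1.80-fold, or by 0.85 on the log2 scale (SE 0.19), with an adjusted p of 0.0102 in limma.

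Dgat2, an enzyme abundant in fat and liver, had log2 values of 8.60, 7.26, 7.09 and 6.29 at L4, against 7.81, 8.12, 8.06 and 6.62 at P14. It varied more between replicates than any other member, with an SD of 0.96 at L4 and 0.70 at P14. Its log2 fold change of -0.34 was smaller than this spread (95% confidence interval -1.38 to 0.70, adjusted p = 0.61 in limma).

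The Dgat2 values moved with the adipocyte markers in part. The mean of the 13 adipocyte markers was 6.81, 6.19, 6.30 and 5.85 log2 units on the L4 arrays, replicates 1 to 4, and 6.14, 6.35, 6.33 and 5.22 on the P14 arrays. Within L4 the array highest for these markers was highest for Dgat2 and the lowest was lowest, and within P14 the order of the 4 arrays was the same for both. L4 replicates 2 and 3 ran the other way, with Dgat2 at 7.26 and 7.09. Across stages, P14 replicate 4 was lowest for the markers, but its Dgat2 value of 6.62 was above the 6.29 of L4 replicate 4. Of the 13 markers 2 were called higher at L4 (Lep and Adig) and 11 missed the threshold. Without L4 replicate 1 and P14 replicate 4, the arrays with the highest and the lowest marker mean, the log2 difference of Dgat2 was -1.12 (adjusted p = 0.0149 in limma). These arrays also held the highest L4 and the lowest P14 value of Dgat2, so leaving them out had to move the difference downward, and this p is no independent test of Dgat2. Without L4 replicate 1 alone it was -0.77 (adjusted p = 0.174), without P14 replicate 4 alone -0.69 (adjusted p = 0.283), and without L4 replicate 4 it was -0.001 (adjusted p = 0.998). The part of adipocyte RNA in the Dgat2 values was not tested.

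Agpat2 was also highest within L4 on the array highest for adipocyte markers and lowest on the lowest, at 7.97 and 6.99. At P14 the order differed, since replicate 4, lowest for the markers, had the highest Agpat2 value of 7.96. Without L4 replicate 1 the difference for Agpat2 was -0.50 (adjusted p = 0.0574 in limma), and without L4 replicate 4 it was -0.18 (adjusted p = 0.451). Gpat3 was highest on the array highest for the markers and lowest on the lowest at both stages, at 4.97 and 4.50 within L4 and at 4.77 and 4.38 within P14. Without the arrays at both ends of the marker mean its difference was -0.04 (adjusted p = 0.836 in limma). These arrays also held its highest L4 and lowest P14 value, so leaving them out had to move the difference downward. Gpam was instead lowest on the array highest for the markers at both stages, at 7.51 within L4 and 7.44 within P14. The part of adipocyte RNA in the Agpat2, Gpat3 and Gpam values was not tested. The 4 called members, Gpat4, Agpat1, Agpat3 and Dgat1, passed the threshold without the arrays at both ends of the marker mean and without each single array. Within L4, Gpat4 ran in the reverse order of the markers, from 8.62 on replicate 1 to 9.06 on replicate 4. Agpat3 was highest within L4 on replicate 1 (7.54), and Agpat1 and Dgat1 on replicate 3. Within P14, Gpat4, Agpat1 and Dgat1 were highest on replicate 4, lowest for the markers, and Agpat3 on replicate 1. The part of adipocyte RNA in these 4 members was not tested either.

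**Figure D3:**
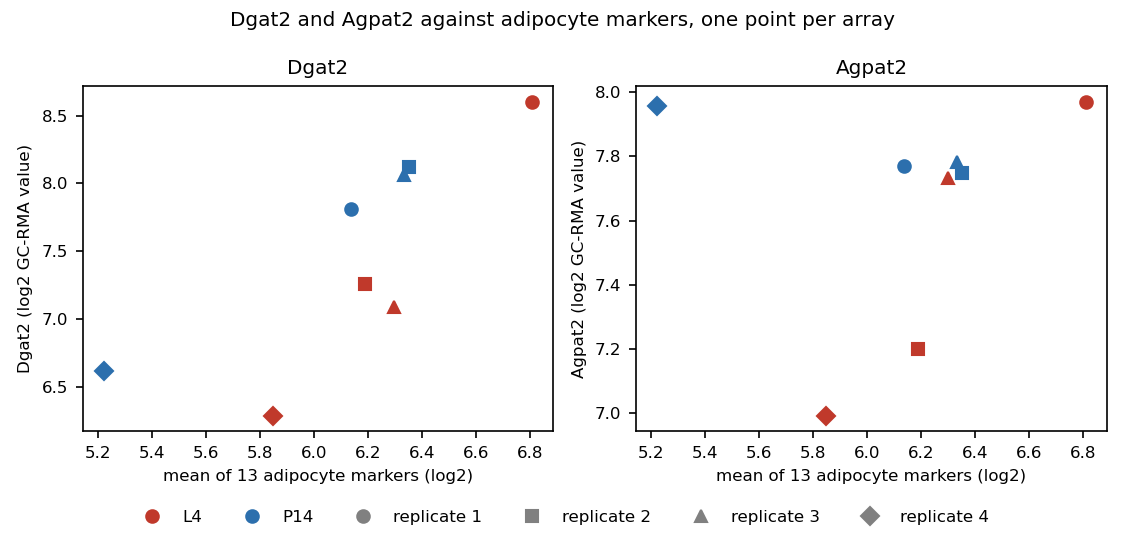
Log2 value of Dgat2 (left) and Agpat2 (right) against the mean log2 value of 13 adipocyte markers (horizontal axis), with 1 point per array, coloured by stage and shaped by replicate. Dgat2 is highest (8.60) where the markers are highest (6.81), while Agpat2 at P14 is highest (7.96) where the markers are lowest (5.22).

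Whether members of a step changed unequally was tested on the difference of their log2 values within each array, for 14 pairs with an exact permutation test over the 70 regroupings of 8 arrays. Levels of different probe sets are not comparable, and only the change between stages was compared. In 8 of the 14 pairs the stages did not overlap and the two-sided exact permutation p was 0.0286, the smallest this design can give. Each of these pairs includes Gpat4, Agpat1 or Agpat3, which were already called singly, so they are not 8 separate results. Among single genes 29.6% did not overlap, and the share over gene pairs in general was not computed. Adjusted over the 14 pairs this p became 0.05, so no pair fell under the threshold. Without L4 replicate 1 there were 9 pairs under it, so this count turns on 1 array. Pairs at the smallest p share 1 adjusted value and pass or fail together, so the jump is a step of the test. It does not show that each difference rests on that array. The log2 fold change of Agpat1 exceeded that of Agpat3 by 2.35 (95% confidence interval 1.97 to 2.73), that of Agpat2 by 1.45 (0.90 to 2.00), that of Agpat4 by 0.77 (0.24 to 1.29) and that of Agpat5 by 0.77 (0.22 to 1.31), all at that smallest p. Agpat3 was also at the smallest p against Agpat2, Agpat4 and Agpat5, as was Gpam against Gpat4, where the change of Gpam minus that of Gpat4 was -0.73 (-1.09 to -0.37). Agpat4 and Agpat5 had log2 fold changes of 0.34 each, and the interval of their difference was -0.36 to 0.35 (exact permutation p = 0.971). For Dgat1 against Dgat2 the difference was 1.20, with an interval of -0.67 to 3.06 (exact permutation p = 0.2, adjusted 0.233), too wide to separate the pair.

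The genes most like Agpat1 and Agpat3 over the 8 arrays were found by the root mean square difference after each gene was centred on its own mean. For Agpat1 these included Thrsp, a lipogenic regulator (0.078 log2 units), Pcyt2 (0.087), Cyb5b (0.092) and Stimate (0.111). Their log2 fold changes ran from 0.98 to 1.11. For Agpat3 they were Tmem98 (0.095), the carnitine carrier Slc25a20 (0.097), the lysophospholipid acyltransferase Lpcat4 (0.105), Hmgb2 (0.111) and the mitochondrial acyl-CoA dehydrogenase Acad9 (0.12), with log2 fold changes from -1.33 to -1.08. Since the measure includes the change between stages, these genes moved with their partner by construction.

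Around the acyltransferases, 44 other genes of glycerolipid metabolism were measured, of which 12 rose and 9 fell, with a median log2 fold change of 0.01. For these counts and those of the lists below, the shares over all genes were 9.73% higher and 16.1% lower. Among 4 genes of glycerol 3-phosphate supply, glycerol kinase Gk rose by 1.11 (SE 0.17, adjusted p = 0.00152 in limma) and Gpd2, the mitochondrial dehydrogenase that oxidises glycerol 3-phosphate, fell by 0.46 (limma adjusted p = 0.0165). The call of Gpd2 ended under quantile normalization (adjusted p = 0.121), when arrays were centred on the brighter genes (0.0704) and without P14 replicate 3 (0.0517). Gpd1, which makes glycerol 3-phosphate in the cytosol, differed by 0.35 log2 units without passing (adjusted p = 0.0577 in limma).

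Between the second and last acylations, 1 of 6 phosphatase genes rose and 1 fell. Lpin1, a phosphatidate phosphatase, had log2 values of 9.70, 10.08, 9.99 and 10.05 at L4, against 8.41, 8.31, 8.38 and 8.31 at P14. It rose by 1.60 (adjusted p = 4.42e-06 in limma). Plpp2, a phosphatase of lipid phosphates at the cell surface, fell by 1.65.

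Of 10 other glycerophosphate and lysophospholipid acyltransferases, most of which act on membrane phospholipids, 6 fell and 1 rose, with a median log2 fold change of -0.70. Mboat2 had log2 values of 4.28, 3.96, 4.41 and 4.50 at L4, against 6.24, 6.24, 6.21 and 6.40 at P14. This fall of 1.99 (SE 0.12) was followed by those of Lpcat1, known for making the saturated phosphatidylcholine of lung surfactant (-1.58), Lpcat4 (-1.19) and Mboat1 (-0.99). Lpgat1 rose by 0.53, and Gpat2, the remaining GPAT gene, had a difference of 0.15 (adjusted p = 0.261 in limma). With means of 4.39 at L4 and 4.24 at P14, Gpat2 was dimmer than Gpat3, so a change could have been missed. The L4 values of Mboat2 were also in this range, where GC-RMA differences can be compressed. Macrophage markers had a list mean between 6.23 and 7.31 at L4 and between 7.30 and 7.91 at P14, with 3 of 6 called lower. T cell markers lay between 4.70 and 5.60 at L4 and between 5.78 and 7.48 at P14, and fibroblast markers between 6.47 and 7.77 at L4 and between 8.07 and 8.91 at P14. Luminal epithelial markers had a list mean between 8.85 and 8.91 at L4 and between 9.77 and 10.01 at P14. Of these 7 markers 5 were called lower and 1 higher. The part of any of these cell types in the falls was not tested.

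Of 8 genes of the phospholipid branches 4 rose and the other 4 missed the threshold in limma. Pcyt2, of phosphatidylethanolamine synthesis, rose by 1.02, the phosphotransferases Cept1 by 0.74 and Chpt1 by 0.69, and Pgs1, of phosphatidylglycerol synthesis, by 0.52. Among 7 relatives of Dgat1 and Dgat2, the wax synthase Awat2 rose by 0.45 (limma adjusted p = 0.0344) and the sterol acyltransferase Soat1 fell by 0.45 (adjusted p = 0.0416). Both calls ended under several alternatives, 8 of 17 for Awat2 and 11 of 17 for Soat1. The monoacylglycerol acyltransferases Mogat1 and Mogat2, which offer another route to diacylglycerol, differed by 0.02 and -0.03 at log2 levels of 3.55 and 4.20 at L4, against 3.53 and 4.23 at P14. Both were dimmer than Gpat3, in the range where GC-RMA differences can be compressed, so a change could have been missed.

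In the triglyceride hydrolysis list 2 of 6 genes rose: Abhd5, the coactivator of adipose triglyceride lipase (0.72), and G0s2, an inhibitor of the same lipase (0.69). Pnpla2, the lipase itself, had a difference of 0.12 (adjusted p = 0.414 in limma), and Lipe, which is also among the 13 adipocyte markers, of -0.34 (adjusted p = 0.191). Of 3 genes of lipid droplet emergence, Bscl2, encoding seipin, rose by 0.42 (limma adjusted p = 0.00171) and Fitm2 by 0.36 (adjusted p = 0.0325, a call that ended under 6 of 17 alternatives).

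**Figure D4:**
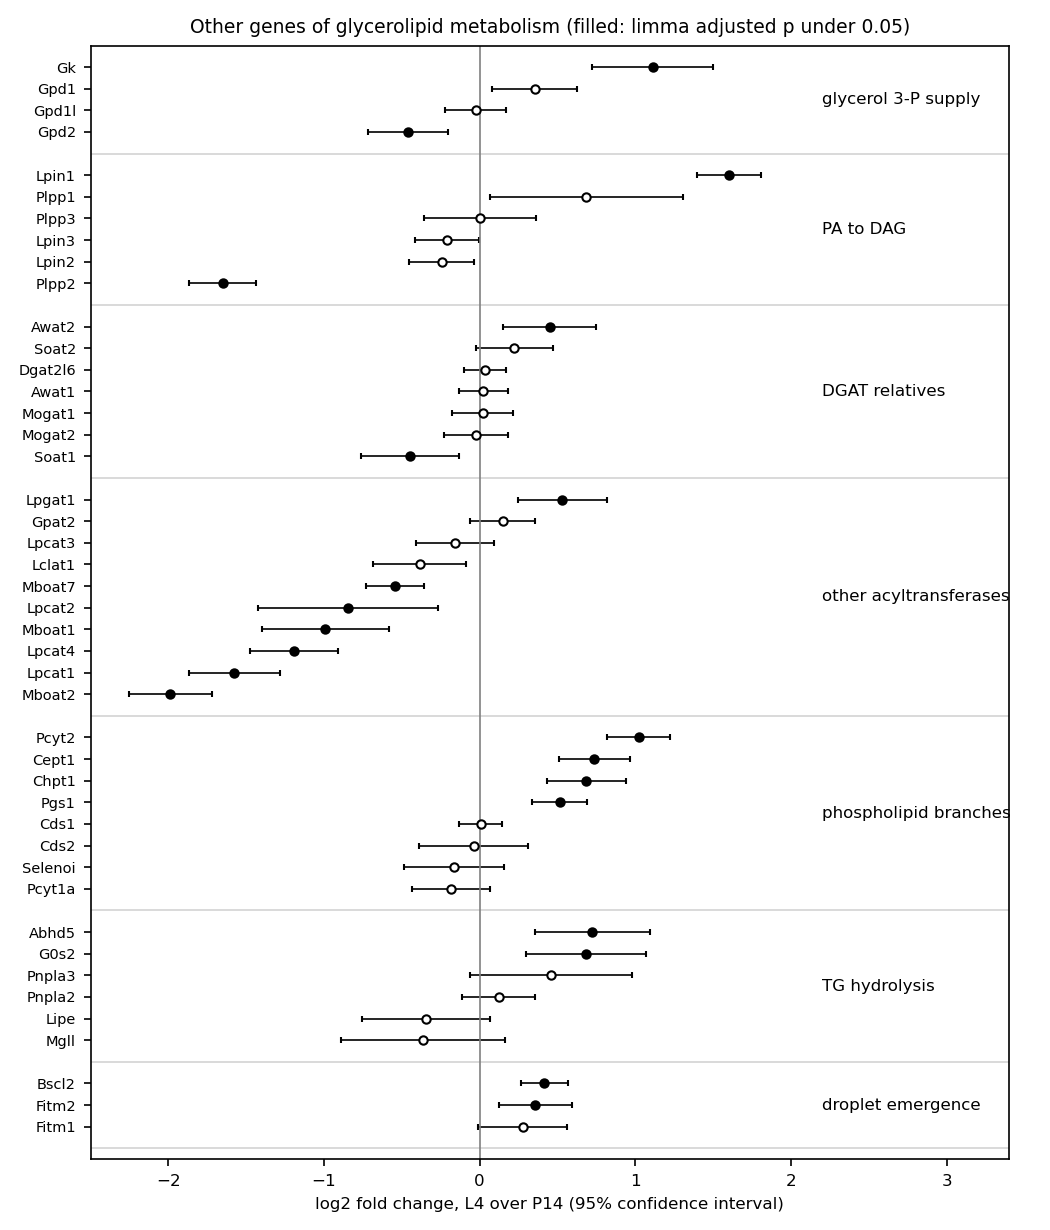
Log2 fold change of L4 over P14 (horizontal axis) with its 95% confidence interval from limma for 44 other genes of glycerolipid metabolism, grouped by list, with filled points for adjusted p under 0.05 (PA, phosphatidate; DAG, diacylglycerol; TG, triacylglycerol). Lpin1 (1.60) rose most, Mboat2 (-1.99) fell most, and most of the other acyltransferases lie left of 0.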

How the data were processed

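Per the labels, total RNA was extracted with Trizol, column-purified with DNase digestion and labelled with biotin for Affymetrix whole-transcript arrays. The authors deposited GC-RMA values on a log2 scale for every probe set, already background-corrected from probe sequence, normalized across arrays and summarised over probes. The tools, per the submitters' processing notes, were GCRMA and Partek. For their versions and for the genome build, the sources used here give nothing. A second deposited table held identical log2 values.

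Of 35556 probe sets, 26836 carried a symbol. Symbols were updated with RefSeq (GRCm38.p6, names only; 1099 changed), and each of 25050 genes was represented by its probe set of highest mean value over the 8 arrays. No further normalization or filter on dim genes was applied. L4 was compared with P14 in limma 3.58.1 (R 4.3.3) with the trend option of eBayes, p-values were adjusted by Benjamini-Hochberg over all genes, with calls made at an adjusted p below 0.05. The median half-width of a 95% confidence interval was 0.21 log2 units; precision is limited by the number of arrays. The fit was tested on simulated data with known shifts. It recovered 65.7% of shifts of 0.5 log2 units, 85.1% of shifts of 1 and 98.5% of shifts of 2, with 1 false call. Smaller shifts were not simulated. The simulation gave 167 calls, against 6463 in the data, so these shares do not carry over directly.

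Named were all 10 members, up to 4 called genes of each pathway list with the largest changes, and the 5 genes nearest to the largest rise and fall, with predicted genes, receptor segments, small RNAs and olfactory genes left out. A withheld gene that this rule gave is not reported here. Further genes of the lists were named after their values were seen. The members and lists were chosen with earlier results of these data known. Same-numbered arrays of the stages had correlations of deviations of 0.242, -0.164, 0.151 and 0.178, so replicate numbers were not taken as pairs. Alternatives covered variance model, scaling, a filter on dim genes, symbols, left-out arrays and a replicate block.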

Additional observations from a re-analysis of the deposited data

Results flagged for a closer look

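Of 72 groups of 4 arrays, each a named gene at a stage, 9 had an array far from the other 3, by the gap to the nearest array as a share of the group's range (Dixon's test at its 95% critical value). Chance passes this limit in about 1 in 20 groups. Among the acyltransferases these were Agpat4 at L4, where replicate 4 was at 6.41 and the others between 5.60 and 5.72 (share 0.849), Agpat3 at P14, where replicate 1 was at 8.82 and the others between 8.55 and 8.58 (0.898), and Agpat2 at P14, where replicate 4 was at 7.96 and the others between 7.75 and 7.78 (0.833). P14 replicate 4, lowest for adipocyte markers, was also high for Abhd5, at 9.91 against 9.15 to 9.23 on the other P14 arrays (0.9), and for Mboat2 (0.873). At L4, replicate 1 was high for Gpd2 (0.925) and low for Bscl2 (0.851), and replicate 3 was low for Fitm2 (0.886) and high for Cyb5b (0.846).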

How the results depend on the processing

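The calls of Gpat4, Agpat1, Agpat3 and Dgat1 and their directions held under all 17 alternatives, with log2 fold changes of 0.60 to 0.85, 1.02 to 1.28, -1.31 to -1.07 and 0.72 to 1.03 and adjusted p up to 0.00734, 0.000886, 0.000226 and 0.0348. No member lost a call. Agpat4 passed the threshold when arrays were centred on the brighter 60% of genes. Agpat5 passed under 3 alternatives, among them this centring and leaving out its lowest L4 array. Dgat2 passed without the arrays highest and lowest for adipocyte markers, which also hold its highest L4 and lowest P14 value. Uncalled members near 0 changed sign: Gpam to 0.063 under quantile normalization, 0.12 with centring on the brighter genes and 0.0031 without the arrays highest and lowest for adipocyte markers, and Gpat3 to -0.036 in the last of these. Centring on the brighter genes adds the same amount to every log2 fold change. The left-out arrays hold the highest L4 and lowest P14 value of Gpat3 and the lowest L4 value of Gpam. The cause of the sign change under quantile normalization was not tested. Calls over all genes numbered 6463, and 13180 with arrays centred on the brighter genes, an alternative that shifts all genes upward by construction. Leaving out 1 array gave 4415 to 6426 calls over all genes, 4 to 5 among the acyltransferases and 16 to 21 among the 44 other pathway genes. Differences within a step numbered 0 under the threshold, with 8 at an unadjusted exact p under 0.05. Leaving out 1 array gave 0 to 9, the 9 without L4 replicate 1, where pairs at the smallest exact p pass or fail together. With the replicate number as a block, a pairing the labels do not establish, limma called 6465 genes, 4 acyltransferases and 19 pathway genes. The pair test in this form has too few replicate differences to reach the threshold, so it says nothing about the pairs. Of 26 other named genes 22 kept their call under all alternatives run. Other probe sets could not be tried, since each member has 1. Without the dimmest 40% of genes Gpat3 has no value.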
